A study of Mus musculus with 8 samples.

Results

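Enteroendocrine cells are the hormone-secreting cells of the gut epithelium. Here they are 75 of 15916 mouse cells from the cecum and colon, selected on their counts of 8 genes of the secretory granule and its transcription factors: Chga, Chgb, Neurod1, Scg2, Scg3, Insm1, Rimbp2 and Cadps. A cell with at least 500 transcripts was taken as enteroendocrine when 3 or more of these genes had a count. The members were 0.471% of the kept cells, with 24 in the cecum and 51 in the colon.

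The study sequenced single epithelial cells of colon and cecum from control mice (Ctrl), antibiotic-treated mice (Abx_4D and Abx_14D) and germ-free mice (GF), which live without microbes. The labels do not say what 4D and 14D stand for, which antibiotics were given, or the strain and age. Cells were pooled by condition, and sorted EPCAM+ CD45- cells were taken as CD44+ and CD44- cells at 1:1, so every share of cells depends on that sort. The cell table names 32 loaded samples, 4 of each tissue and condition. No label ties a numbered sample to an animal; the numbered samples may be parts of 1 pool, and the p-values then speak of technical spread alone. Cells of 1 sample are not replicates of a condition.

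Enteroendocrine cells sense the gut contents and release hormones or serotonin from dense-core granules onto nerves, vessels and neighbouring cells. In the large intestine they are known to fall into enterochromaffin cells, which make serotonin through the enzyme Tph1, L cells, which make glucagon-like peptides from Gcg together with peptide YY (Pyy), and D cells, which make somatostatin (Sst). All of them arise from crypt progenitors that switch on the transcription factor Neurog3.

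The members held a median of 20193 transcripts, against 13442 in the other kept cells, and ranged from 1785 to 63920. In all, 52 of the 75 carried 6 or more of the 8 genes. The genes used for selection are named with levels and no test, and those that passed the low-count filter stayed among the genes tested. Levels are in CPM, the transcripts of a gene scaled to a common total, summed over cells. CPM is not divided by gene length, so levels are compared within a gene. Chgb, a granule protein, reached 6476 CPM in the members and 1.15 CPM in the other cells. Chga, its relative, reached 2363 CPM against 0.408 CPM. Rimbp2, a protein of the release site, had a count in 72 members, and Scg2, another granin, in only 14. At the edge of the rule, the 8 cells with 3 of the genes had a median of 17830 transcripts and 4 of them carried Neurog3. The 52 cells with 2 of the genes had a median of 21662 transcripts, and 15 of them carried Neurog3.

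Most lists of markers of other cell types were lower in the members, and 1 was higher. The goblet list summed to 200.1 CPM in members and 3689 CPM in the other cells, and Muc2, the main secreted mucin, never exceeded 6 counts in a member. The immune list summed to 3.65 CPM, with 9 of its 14 genes at 0. The tuft list summed to 43.2 CPM against 169 CPM. The absorptive list was less reduced, at 3114 CPM against 6147 CPM, the stem list stood at 1075 CPM against 2849 CPM, and the cycling list at 326 CPM against 951 CPM. These sums pool tissues and conditions. By group, the absorptive list went from 1443 against 9673 CPM in cecal Ctrl to 7953 against 8930 CPM in cecal GF, where it was hardly reduced. The list of stroma, muscle, neuron and glia markers was higher in the members, at 245 CPM against 8.66 CPM. Its counts came mainly from Rbfox3, Ret and Elavl4, genes known from neurons, at 82.1, 78.5 and 45.0 CPM, and 8 of its 16 genes, among them Col1a1, Acta2, Sox10 and S100b, were at 0. The part of neuronal transcripts in the results was not tested. Doublets were not removed. No 2 members shared a combination of well barcodes, and 6 shared one with another kept cell in a different sublibrary.

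The members came from 21 of the 32 samples. In the cecum, the 4 Ctrl samples averaged 0.421% ± 0.290 (SD), Abx_4D 0.129% ± 0.162, Abx_14D 0.538% ± 0.263 and GF 0.256% ± 0.199. In the colon, Abx_14D averaged 0.476% ± 0.163 and GF 0.699% ± 0.281. Single samples ranged from 0.309% to 0.899% in cecum Abx_14D, from 0% to 0.336% in cecum Abx_4D and from 0.351% to 1.04% in colon GF, so the first 2 of these overlapped. Colon Ctrl held 0 enteroendocrine cells among 50 kept cells, which allows a share of up to 6%. All 4 cells of colon Abx_4D came from sample 1, which held 857 of the 1026 kept cells of that group.

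None of the 8 comparisons of these shares passed an exact two-sided permutation test after Benjamini-Hochberg adjustment over 10 share comparisons. The lowest p was 0.0571 (adjusted p = 0.222, exact), for the cecum after Abx_14D against Abx_4D (0.409 percentage points higher) and for colon against cecum in GF (0.443 percentage points higher). With 4 samples a group the smallest p the test allows is 0.0286 before adjustment. A single comparison at that p could not pass the adjustment over 10 comparisons, so the lack of a call says little.

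**Figure D1:**
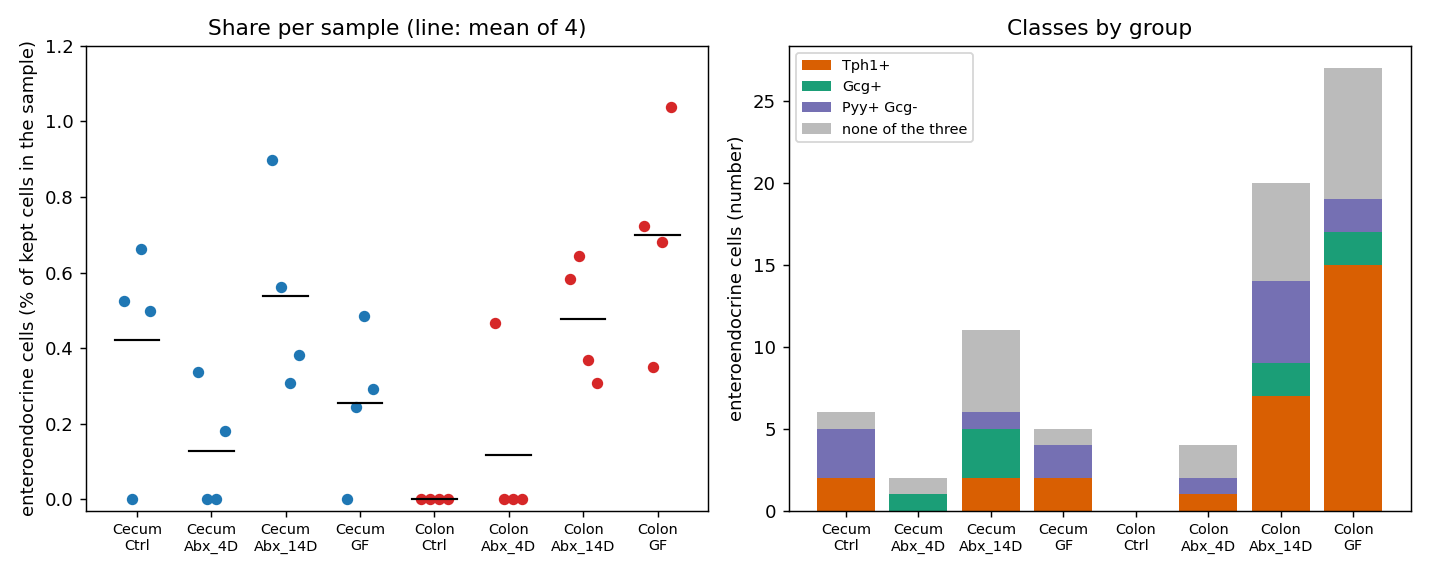
Left, enteroendocrine cells as a percent of the kept cells in each of the 32 samples (points), with the mean of each group of 4 (line). Right, the number of enteroendocrine cells in each group, divided into Tph1-positive, Gcg-positive, Pyy-positive without Gcg, and none of these genes; the colon GF group holds 27 cells, of which 15 are Tph1-positive.

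Tph1 and the peptides Gcg and Pyy did not meet in a cell. Tph1 had a count in 29 members, Gcg in 8 and Pyy in 20, and 0 cells carried Tph1 together with Gcg or Pyy. After thinning every cell to 5000 transcripts, 26 cells carried Tph1 and 13 carried Gcg or Pyy. Thinning only removes counts, so the 0 cells with both there follow from the 0 above and are no further test. The remaining 24 members had none of the 3 genes. Among the other kept cells, 0.297% had a Tph1 count, and only 6 reached 3 counts.

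**Figure D2:**
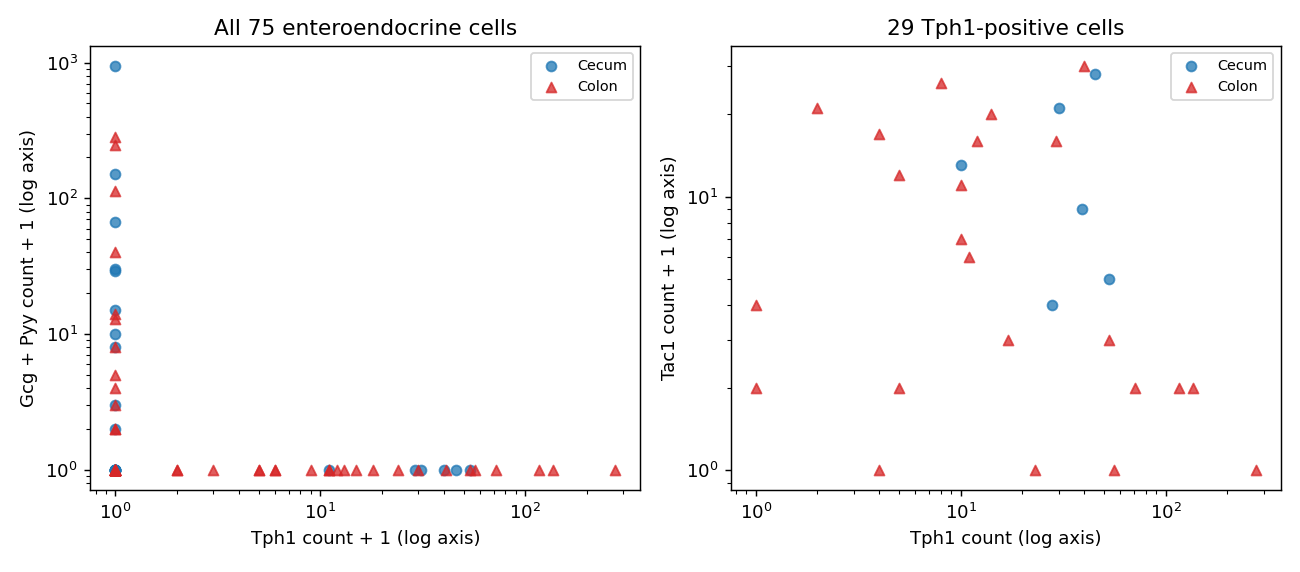
Left, Tph1 against the sum of Gcg and Pyy in each of the 75 cells (count + 1, log axes): all points lie on one axis or the other. Right, Tph1 against Tac1 in the 29 Tph1-positive cells; the 6 colon cells with 50 or more Tph1 counts have 0 to 2 Tac1 counts.

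The 29 Tph1-positive cells carried the other genes of serotonin synthesis and storage. Ddc, which makes serotonin from the product of Tph1, had a count in all 29 cells and reached 1693 CPM, against 286 CPM in Gcg-positive cells. Slc18a1, the vesicular monoamine transporter, also had a count in all 29 and reached 1045 CPM. Gch1, which supplies the cofactor of Tph1, was found in 26. The transcription factor Lmx1a had a count in all 29 (12 to 228 counts) and in 0 of the 22 cells with Gcg or Pyy. Tac1, the precursor of substance P, was present in 25 and Chgb stood at 14942 CPM in the class, against 176 CPM in Gcg-positive cells.

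Tph1-positive cells varied among themselves. In the colon, the 6 cells with 50 or more Tph1 counts had a median of 1 Tac1 count (0 to 2), and the 17 with fewer had a median of 10 (0 to 29). Sct, the secretin precursor, had a count in 4 of those 6 and in 0 of the 17. This division at 50 counts was chosen after the values were seen. All 6 high cells came from GF samples 1, 2 and 3, and the 17 others hold the 8 colon Tph1-positive cells of Abx_4D and Abx_14D, so the division goes with the condition. The 9 colon GF cells under 50 Tph1 counts had a median of 3 Tac1 counts (0 to 25). In the cecum, 5 of 6 Tph1-positive cells carried Sct and all 6 carried Tac1. Slc18a2, the second vesicular monoamine transporter, was found in 4 of the 6 cecal and in 0 of the 23 colon cells of the class.

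Several receptors and 1 channel were counted by class. Or51e2, an odorant receptor known to respond to short-chain fatty acids, had a count in 16 Tph1-positive and 2 Gcg-positive cells and in 0 of the others. The 2 Gcg-positive cells, both from colon GF, held 125 and 147 counts, and no Tph1-positive cell held more than 49. Its relative Or51e1 was seen in 11 cells, all of them Tph1-positive. Npy1r, a receptor for peptide YY, had a count in 19 Tph1-positive cells and in 1 other member. Piezo2, a mechanically gated ion channel, was present in 7 of 29 Tph1-positive cells, 3 of 14 Pyy-positive cells without Gcg, 0 Gcg-positive cells and 1 of the others. Of the 7 Tph1-positive cells with Piezo2, 6 carried Or51e2 too. Ffar2, a receptor for short-chain fatty acids, was spread over all classes, with a count in 44 members.

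The 8 Gcg-positive cells were a mixed group. Of these, 6 also carried Pyy, 3 carried Insl5, 3 carried Nts (neurotensin) and 4 carried Cck (cholecystokinin). The 3 Insl5 cells were colonic, with 15, 62 and 79 counts, and 0 of the 24 cecal members had an Insl5 count, which allows up to 12.5% of cells with a count and sets no limit on cells that express the gene. Nts was found in 5 cecal members and 1 colon member. A single cecal cell of Abx_14D sample 3 held 651 Gcg, 571 Nts, 416 Sct and 289 Pyy counts, out of 638 Nts and 471 Sct counts in all members. A pair of cecal Abx_14D cells with 66 and 28 Gcg counts also had 65 and 54 counts of the proliferation marker Mki67, and 0 Pyy. Etv1, an ETS transcription factor, had a count in all 8, and Gpr119, a lipid receptor, in 6.

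The 14 cells with Pyy but no Gcg were mostly Sst cells. Sst had a count in 11 of them and in 1 other member, at 1814 CPM in the class. Hhex, a transcription factor of somatostatin cells, was present in 13 of the 14, at 379 CPM, and in 0 Tph1-positive or Gcg-positive cells. Isl1, a transcription factor of peptide-producing endocrine cells, had a count in all 14 and in 0 of the 29 Tph1-positive cells. Iapp (amylin) was found in 7 of the 14. Casr, the calcium-sensing receptor, reached 213 CPM in this class, in 8 cells. Pyy counts in these cells were low in several cases, down to 1.

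Of the 24 members with none of the 3 genes, 18 carried Neurog3. Neurog3 was found in 6 Tph1-positive cells and in 0 cells with Gcg or Pyy. A group of 5 had 32 to 65 counts of Lmx1a and no Tph1, and all 5 carried Neurog3. Ghrl (ghrelin) was found in 2 of the 24, with 32 and 9 counts. The classes were defined by a count of at least 1, so a low count of the defining gene could place a cell in another class.

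**Figure D3:**
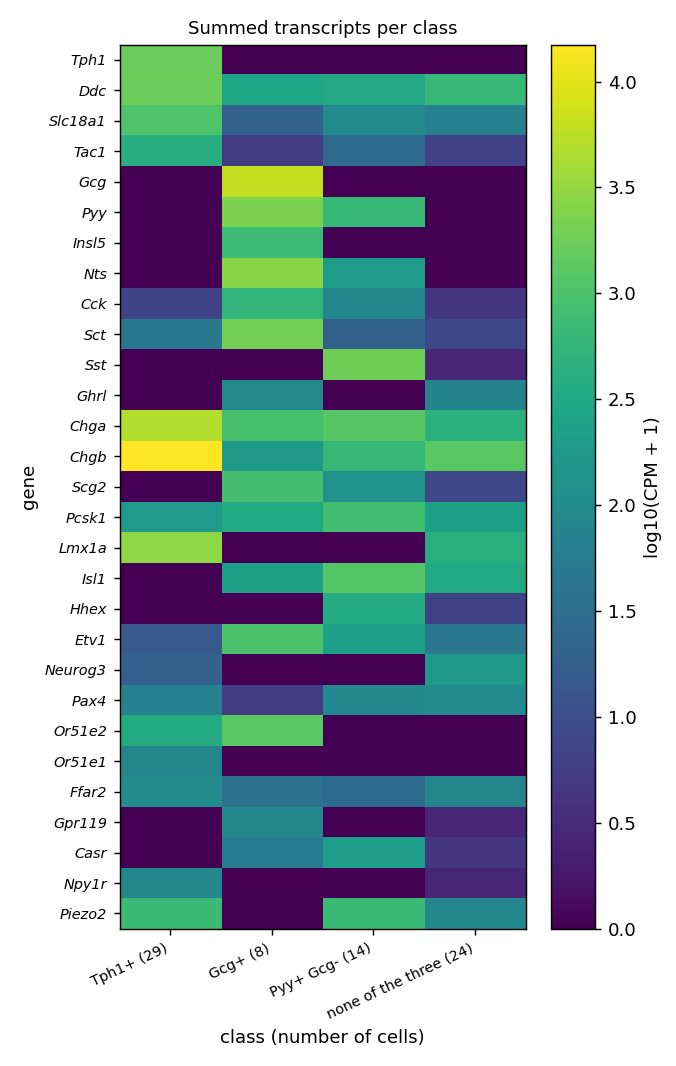
Summed transcripts of hormones, granule genes, transcription factors and receptors in the 4 classes of enteroendocrine cells (colour: log10 of CPM + 1; number of cells in brackets). Lmx1a is brightest in the Tph1-positive class and dark in Gcg-positive and Pyy-positive cells, Isl1 is dark in the Tph1-positive class, and Hhex is dark in the Tph1-positive and Gcg-positive classes; Tph1, Gcg and Pyy define the columns.

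Genes shared by all classes included those of granules and excitability. Ptprn2, a granule membrane protein, reached 6766 CPM in members and 93.7 CPM in the other cells, with a count in 71 members. Kcnb2, a voltage-gated potassium channel, reached 4626 CPM against 38.8 CPM, and Cacna1a, a calcium channel subunit, 2617 CPM against 107 CPM. Scn3a, a sodium channel, stood at 844 CPM against 0.140 CPM. The transcription factors Rfx6 and Nkx2-2 had a count in 64 and 61 members. These values describe cells chosen on correlated genes and carry no test.

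Levels of prohormone-processing genes are given by class over pooled cells, without a test. Pcsk1, the convertase that cuts prohormones, had a count in 62 members, at 800.5 CPM in Pyy-positive cells without Gcg and 200.2 CPM in Tph1-positive cells. Cpe, the carboxypeptidase that trims the cut peptides, had a count in 56 members and stood at 1063 CPM in Gcg-positive cells against 419 CPM in Tph1-positive cells. Pcsk2, the other main convertase, was found in 4 members. Among receptors for peptides, Glp1r, the receptor for glucagon-like peptide, had a count in 10 Tph1-positive cells, 7 Pyy-positive cells without Gcg and 0 Gcg-positive cells. Agtr1a, an angiotensin receptor, had a count in 10 Pyy-positive cells without Gcg, 3 Gcg-positive cells and 0 Tph1-positive cells. Ffar1, a receptor for long-chain fatty acids, was found in 6 members, 3 of them Gcg-positive.

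Hormones also had different numbers of cells in the tissues, given here without a test. Sct had a count in 14 of 24 cecal and 6 of 51 colon members, and Cck in 7 and 3. Tac1 had a count in 7 cecal and 22 colon members, and Neurog3 in 6 and 18. Sst was found in 6 members of each tissue. These numbers pool samples of unequal size.

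Conditions were compared within each tissue on counts summed per sample. In the cecum no sample held 5 enteroendocrine cells, so samples with 1 to 4 cells were used. Tph1-positive cells were 2 of 6 in Ctrl, 0 of 2 in Abx_4D, 2 of 11 in Abx_14D and 2 of 5 in GF. edgeR's quasi-likelihood test called 0 of 2123 genes (0%) in each of the 5 cecal comparisons. At unadjusted p under 0.05 there were 180 genes for Abx_4D against Ctrl, 141 for Abx_14D against Ctrl, 89 for GF against Ctrl, 64 for GF against Abx_14D and 179 for Abx_14D against Abx_4D. DESeq2 called 1, 0, 0, 1 and 1.

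In the colon, GF and Abx_14D were compared over the samples with at least 5 cells, 4 and 2 of them. Tph1-positive cells were 60.7% ± 22.3 (SD, n = 4) of the enteroendocrine cells in GF and 23.6% ± 5.14 (n = 2) in Abx_14D (exact two-sided permutation p = 0.133, adjusted p = 0.245). Gcg-positive or Pyy-positive cells were 13.6% ± 9.44 in GF and 42.7% ± 3.86 in Abx_14D (exact permutation p = 0.0667, adjusted p = 0.222), where 0.0667 is the smallest p this design allows. With all samples holding at least 1 cell, Tph1-positive cells were 60.7% ± 22.3 in GF and 49.3% ± 36.1 in Abx_14D, a difference of 11.4 percentage points (exact permutation p = 0.686, adjusted p = 0.886). The added Abx_14D samples 3 and 4 held 2 cells each, of which 2 and 1 were Tph1-positive.

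At the level of transcripts, Tph1 stood at 207, 589, 2231 and 4148 CPM in the 4 colon GF samples and at 32.9 and 100.4 CPM in the 2 Abx_14D samples. These groups do not overlap. The share of the 3938 tested genes without overlap is not given, so this does not set Tph1 apart. The other 2 Abx_14D samples, with under 5 cells each, stood at 142 and 1985 CPM, and the second of these lies inside the range of GF. The fitted difference for Tph1 was 4.65 ± 1.19 (log2, SE; edgeR adjusted p = 1). edgeR called 0 of 3938 genes (0%), with 144 at unadjusted p under 0.05, and DESeq2 called 7.

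Over both tissues, with the tissue as a term, GF and Abx_14D differed in 0 of 2521 genes (0%; 72 at unadjusted p under 0.05, DESeq2 0). MHC class I genes present peptides at the cell surface. B2m, the shared light chain, ranged from 10.7 to 76.3 CPM in colon GF and from 57.5 to 270.1 CPM in colon Abx_14D, with overlapping samples. H2-D1, a heavy chain, ranged from 47.7 to 114 CPM in colon GF and from 115 to 250.3 CPM in colon Abx_14D. These ranges nearly touch and do not overlap. The share of all tested genes without overlap between these conditions is not given, so this does not set H2-D1 apart. In the cecum H2-D1 ranged from 95.9 to 148 CPM in GF and from 146 to 431 CPM in Abx_14D, with overlap, and over both tissues the conditions overlapped too. B2m in the cecum ranged from 91.2 to 190.02 CPM in GF and from 93.2 to 989 CPM in Abx_14D, with overlap. Their fitted differences were -1.81 ± 0.55 and -1.07 ± 0.33 (log2 GF over Abx_14D, SE; edgeR adjusted p = 1 for each). In the other kept cells of the colon the MHC class I list summed to 584 CPM in GF and 1151 CPM in Abx_14D. The interferon list had a median of 697 CPM (568 to 1055) in the 7 GF samples and of 931 CPM (605 to 2934) in the 8 Abx_14D samples, so the ranges overlapped.

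Colon and cecum were compared over both of these conditions. Over the Abx_14D and GF samples, 47 colon cells in 8 samples were set against 16 cecal cells in 7 samples, with the condition as a term. This comparison was added after trial fits, several with no call, had been seen. edgeR called 59 of 2521 genes (2.34%), 18 higher in the colon (0.714%) and 41 higher in the cecum (1.63%), and DESeq2 called 179. The samples of the tissues did not overlap for 11 of the 2521 genes (0.436%), and 10 of these were called.

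Piezo2 was higher in the colon. It ranged from 0 to 1372 CPM in the colon samples, with a median of 596 CPM, and was 0 in all 7 cecal samples. Of the 8 colon samples, 7 lay above all cecal samples. The cecal members held 0 counts, and against a floor of 3 counts over that group the colon level was at least 90.4-fold higher (edgeR adjusted p = 0.00278). Over Tph1-positive cells of all conditions, Piezo2 stood at 932 CPM in the 23 colon cells and 0 in the 6 cecal cells. In the colon 16 of the 23 had no count either, so 6 cecal cells are too few to set the tissues apart within the class. The other kept cells of Abx_14D and GF had 1.12 CPM in the colon and 0.546 CPM in the cecum.

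Or51e2 was higher in the colon as well. It ranged from 0 to 1907 CPM in colon samples, with a median of 330 CPM, and from 0 to 15.9 CPM in cecal samples. In colon GF samples 1 and 2, 125 and 147 of its counts came from 1 Gcg-positive cell each. The cecum held 1 count, which gives a ratio of 204 with a counting interval of 36.4 to 8058 (edgeR adjusted p = 0.0147). The call was lost in 2 of the 10 fits that left out a sample and still tested the gene. Lgr5, a receptor of crypt stem cells, had a median of 191 CPM in the colon and 0 in the cecum (log2 4.30 ± 0.96, SE; edgeR adjusted p = 0.0254). Zdhhc1, a palmitoyltransferase, was higher in every colon sample than in any cecal sample, at 119 to 345 CPM against 22.8 to 81.5 CPM (edgeR adjusted p = 0.0153). In fits that left out 1 sample and tested the gene, Lgr5 kept its call in 7 of 10 and Zdhhc1 in 13 of 15. In colon GF sample 1, 77 Lgr5 counts came from 1 cell with only 3 of the selection genes, 0 Chga and 2 Chgb counts. Lgr5 also stood higher in the colon in the other kept cells.

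Among genes of absorptive cells, Car1 and Slc26a3 were higher in cecal members. Car1, a carbonic anhydrase, ranged from 63.3 to 7160 CPM in the cecum and from 21.0 to 71.2 CPM in the colon (log2 -5.79 ± 0.84, SE; edgeR adjusted p = 0.00107). Slc26a3, a chloride exchanger, had a median of 438 CPM in the cecum and 2.09 CPM in the colon. The whole absorptive list summed to 1887 to 21274 CPM in cecal samples and to 1222 to 2004 CPM in colon samples, and 2 of its 6 tested genes were called. In the other kept cells Car1 stood at 4196 CPM in the cecum and 280.2 CPM in the colon. Of the 59 called genes, 57 differed in the same direction in the other kept cells, the exceptions being Rras2 and Plcb1. The same share over all genes tested is not given, so this count does not set the called genes apart. The part of transcripts from neighbouring cells in these values was not tested.

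Of the serotonin list, 5 genes were tested and 1 was called, beside 2.34% of all genes tested. Maoa, which degrades serotonin, had a median of 831 CPM in the cecum and 65.5 CPM in the colon (edgeR adjusted p = 0.0208), and also differed in the other kept cells, at 1133 and 325 CPM. With 1 sample left out, Maoa lost its call in 5 fits and kept it in 10. With 1 sublibrary left out, the call was lost in 3 and kept in 5. Ddc had a median of 1088 CPM in the colon and 285 CPM in the cecum (log2 1.58 ± 0.46, SE; edgeR adjusted p = 0.0806). None of 24 tested granule genes, 18 tested transcription factors of the lineage, 3 tested hormones or 7 tested regional transcription factors was called. The granule genes included Chga, Chgb, Scg3, Rimbp2 and Cadps, and the factors included Neurod1 and Insm1. These genes selected the cells, so the counts for those lists are not free of the selection. With 2.34% called over all genes tested, lists this short are too small for these counts to set them apart. Sox4, expressed in progenitors, gave a positive difference short of the threshold (log2 1.80 ± 0.48, SE; edgeR adjusted p = 0.0524; 0.0419 with TMM scaling). The median log2 difference was 0.738 over the tested lineage factors, Neurod1 and Insm1 among them, and 0.0208 over all tested genes.

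Further genes without overlap between the tissues were higher in the cecum: Tmsb4x and Pfn1, which bind actin, Coro1c and Pls1, which organise actin, Rras2, a small GTPase, Cast, an inhibitor of calpain, Slc25a5, a mitochondrial nucleotide carrier, and Cmpk1, a nucleotide kinase. Tmsb4x ranged from 127 to 416 CPM in cecal and from 0 to 98.8 CPM in colon samples. Cmpk1 ranged from 207 to 422 CPM in cecal and from 38.1 to 143 CPM in colon samples. With 1 sample left out, Rras2 lost its call in 13 fits and kept it in 2. Coro1c lost it in 9 and kept it in 6, and Pfn1 lost it in 8 and kept it in 5. Pls1 lost it in 7 and kept it in 8, and Slc25a5 lost it in 6 and kept it in 9. Tmsb4x, Cast and Cmpk1 kept it in all 15.

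The calls rested on few cells. Leaving out 1 sample left 17 to 83 called genes, and 10 of the 59 were called in every such fit. In the cecum, 17 genes were called without Abx_14D sample 3, 18 without Abx_14D sample 4, 37 without Abx_14D sample 2 and 21 without GF sample 3. In the colon, 30 were called without Abx_14D sample 1, 27 without Abx_14D sample 3, and 33, 22 and 27 without GF samples 1, 2 and 3. Other sublibraries left out gave 35 (sublibrary 2), 39 (sublibrary 5) and 58 to 84 genes. Without sublibrary 3 or without sublibrary 6, 4 genes were called, and Piezo2 and Papss2 were the 2 genes of the 59 called whichever sample or sublibrary was left out. Without the samples of over 0.5% mitochondrial transcripts in the median, 13 genes were called, 7 of them among the 59. Within Abx_14D alone 3 of 3277 genes (0.0915%) were called and within GF alone 3 (0.0915%), all higher in the cecum, and the difference between those contrasts gave 0 calls (0%; 112 at unadjusted p under 0.05, DESeq2 2).

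**Figure D4:**
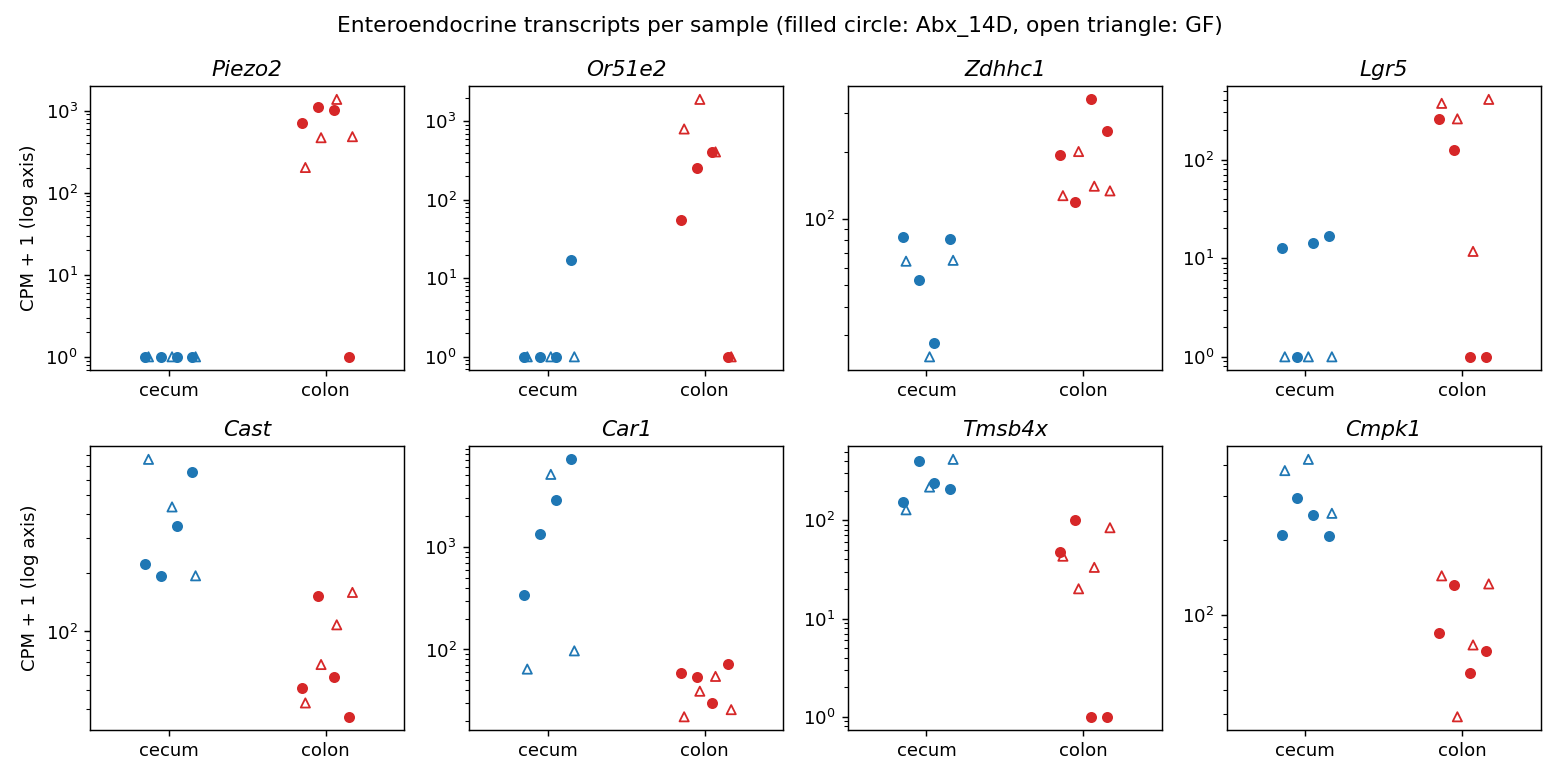
Enteroendocrine transcripts of 8 genes in each sample of Abx_14D (filled circles) and GF (open triangles), in CPM + 1 on a log axis. Piezo2 is at 0 in all 7 cecal samples and above 0 in 7 of 8 colon samples, and Cast, Tmsb4x, Cmpk1 and Zdhhc1 separate the tissues without overlap.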

How the data were processed

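Sorted epithelial cells were barcoded with the Parse Biosciences Evercode WT kit, per the labels' protocols, in 8 sublibraries. The authors deposited 1 matrix of transcript counts per cell and gene, not normalised, with the total and the loaded sample of each barcode. The submitters' processing notes name Seurat and the build mm39; aligner and counter: not given in the sources used here. Of 24609 barcodes, 15916 with at least 500 transcripts were kept. Tissue and condition came from the sample names in the cell table. Doublets were left in.

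Raw counts of enteroendocrine cells were summed per sample and tested with edgeR 4.0.16 in R 4.3.3 (quasi-likelihood, library-size scaling, default low-count filter, Benjamini-Hochberg, threshold 0.05). DESeq2 1.42.0 was an alternative. Sums were 15788 to 239045 transcripts per sample in the tissue comparison. Samples were to hold at least 5 enteroendocrine cells. No cecal sample did, so for every comparison with cecal samples samples with at least 1 cell were used. The comparison of colon with cecum over Abx_14D and GF, and that of GF with Abx_14D over both tissues, were added after the call counts of 7 trial fits, themselves included, were seen. Of those 7 fits, 5 had no call. Shares were compared with exact permutation tests. Intervals and floors cover counting error only. The edgeR step was also run on simulated data, and the outcome is not given here.

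Genes were named by rule: up to 10 in each direction with an adjusted p under 0.05, at least 20 CPM in the higher group and no overlap between groups, any gene of the hormone, serotonin, transcription factor and receptor lists, and up to 4 of each other list. Papss2 and Plcb1, and genes flagged in the closing section outside this rule, were chosen after their values were seen. The cells, lists and tests were chosen with earlier results of these data known. Some genes are not reported here.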

Additional observations from a re-analysis of the deposited data

Results flagged for a closer look

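Of 59 groups of 4 to 10 samples examined, 12 held a sample far from the others by Dixon's criterion. Chance alone meets it in about 1 in 20 groups of normally distributed values. The values here are skewed and often 0, and a group with only 1 sample above 0 always meets it. The 12 therefore cannot be set against that rate. In colon Abx_4D, sample 1 had 0.467% enteroendocrine cells among 857 kept cells. The other 3 samples had 0%, among only 108, 20 and 41 kept cells. Among cecal samples, Rras2 reached 1612 CPM and Slc26a3 reached 2153 CPM, Or51e2 reached 15.9 CPM in the 1 sample with a count, Rims2, a protein of the release site, reached 827 CPM and Kcnmb2, a potassium channel subunit, reached 421.8 CPM. Among colon samples, Maoa reached 349 CPM, Or51e2 reached 1907 CPM and Papss2, an enzyme of sulfate activation, reached 217 CPM. The summed MHC class I list reached 2520 CPM in 1 Abx_14D sample. The MHC class II list reached 686 CPM in 1 Abx_14D sample and 63.9 CPM in 1 GF sample.

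Barcodes under 500 transcripts, which no comparison used, held 8 with a Tph1 count and 7 with 2 or more of the 8 genes of the selection rule.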

How the results depend on the processing

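For colon against cecum over Abx_14D and GF, DESeq2 called 179 genes, no low-count filter 483, samples with at least 2 cells 97, cells with 4 or more markers 30, leaving out samples over 0.5% mitochondrial transcripts 13, the Tph1-positive share as a covariate 122 and Tph1-positive cells alone 19. A replicate block on sample numbers called 33, and 1 in place of 3 for GF colon against cecum. The numbers were not treated as pairs. Of 7 same-number pairs, 3 correlated above 0.1, in a range from -0.159 to 0.212. The mean correlation was 0.048 for same-number pairs and -0.016 for other pairs within a condition. With so few cells per sample, these correlations cannot decide whether samples are paired. Leaving out a sample gave 17 to 83 calls and leaving out a sublibrary 4 to 84. Within Abx_14D, colon against cecum gave 50 (DESeq2), 286 (no filter), 0 (without high-mitochondrial samples) and 8 (covariate), and 0 to 17 with a sample or sublibrary left out. Within GF it gave 29, 160 and 9 under the first 3 of these, 1 with 4 or more markers, and 0 to 8 with 1 left out. Their interaction gave 2 (DESeq2) and 30 (no filter). Colon GF against Abx_14D gave 7 and 69 under the same settings. In the cecum, DESeq2 called 1 gene for Abx_4D against Ctrl, GF against Abx_14D and Abx_14D against Abx_4D, and no filter gave 22, 22 and 24. No filter gave 32 for cecal Abx_14D against Ctrl (covariate 1), 4 for GF against Ctrl and 37 for GF against Abx_14D over both tissues. Leaving out 1 sample or sublibrary gave 0 to 1 for GF against Abx_14D over both tissues, for cecal Abx_4D against Ctrl and for colon GF against Abx_14D. The cause of these moves was not tested.

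The cecal share after Abx_14D minus Ctrl changed sign to -0.0280 (thinned to 5000 transcripts) and -0.0218 (2 or more markers), and ranged from -0.0237 to 0.197 with 1 sample left out (-0.00366 without Abx_14D sample 1). Colon minus cecum in Abx_14D became 0.0252 and 0.0409 when thinned to 2000 and 5000 transcripts, and ranged from -0.138 to 0.0589 with 1 sample left out. Over samples with 1 cell or more, colon minus cecum in GF became 10.7 percentage points for Tph1-positive cells without high-mitochondrial samples (-39.3 to 10.7 with 1 sample left out, among them 0.952). For Gcg-positive or Pyy-positive cells it became 11.7 (thinned to 5000), 2.46 (positive at 3 counts) and -19.8 to 13.6 (1 sample left out). Colon GF minus Abx_14D for the latter ranged from -14.9 to 0.238 with 1 sample left out. No named gene changed direction under the settings run: apart from samples or sublibraries left out, 222 values kept their side of the threshold, 37 lost the call and 14 gained it. A minimum of 10 cells for colon GF against Abx_14D could not be fitted.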

Other observations

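Outside the gene lists, 25 genes with a count in at least 15 members were described for their high ratio of members to other kept cells. Some followed a class. Slc38a11, an amino acid transporter, had a count in 28 of 29 Tph1-positive cells and in 2 Pyy-positive and 2 other members, and 1810006J02Rik in 25 Tph1-positive cells of 27 in all. Stk32a, a kinase, had a count in 19 Tph1-positive cells and 12 of the 14 Pyy-positive cells without Gcg, and in 0 of the 24 cells with none of Tph1, Gcg and Pyy. Tnr, an extracellular matrix protein, stood at 588 CPM in Pyy-positive cells without Gcg and at 16.1 CPM in the cells with none of the 3 genes. Others were spread over the classes: Vwa5b2 had a count in 60 members and Map1b, a microtubule protein, in 62. These genes were found in the same cells that define the group, so their levels are a description.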
